A study of Mus musculus with 8 samples.

Results

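The circadian clock genes measured here were Arntl, Npas2, Per1, Per2, Per3, Cry1, Nr1d1, Nr1d2, Dbp and Tef, 10 genes that form the core of the clock or are its direct outputs in liver. All non-control spots of the arrays carrying these gene names were taken, and every probe was kept separate. This gave 13 probes among 55681 probes of the array, which carry 34836 distinct gene names, with a pair of probes each for Per1, Nr1d2 and Dbp. Of the 13 probes, 10 probes of 8 genes exceeded the background clearly in every mouse of NZO, of B6 or of both and entered the test across 27639 probes. The probes of Per3 and Cry1 and the second probe of Per1 did not, and only their values are given.

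Liver RNA of 4 NZO mice (strain NZO/HiBomDife) and 4 B6 mice (strain C57BL/6) was measured on single-colour Agilent arrays. Each array was read as the RNA of a single mouse, which the labels do not state in words. NZO is an inbred strain that becomes obese and diabetic, and B6 is the lean strain of the comparison. All mice were male and 6 weeks old and received a high-fat diet with 45% fat. There was no group on another diet, and only RNA of high integrity was selected for the arrays. The labels and the methods used here give neither the hour of tissue collection nor the feeding state at collection. Strain and hour of collection therefore cannot be told apart, and whether the hour differed between mice was not tested. Values are log2 signals relative to the 75th percentile of the array (0 is the level of that percentile), and mice are named by strain and label number. Of the spots on an array, 50.4% to 55.0% were well above background in NZO and 53.1% to 60.1% in B6.

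In the mammalian clock, Arntl (also named Bmal1) pairs with Clock or Npas2, binds E-box elements and switches on the Per and Cry genes, whose proteins then block it. The nuclear receptors encoded by Nr1d1 and Nr1d2 (Rev-erb alpha and beta) are switched on through E-boxes as well and repress Arntl and Npas2 through ROR elements, where the ROR receptors activate. Dbp and Tef belong to the PAR bZIP factors, which bind D-box elements and carry the rhythm to output genes such as those of bile acid, haem and drug metabolism. In mouse liver the transcripts of Arntl, Npas2 and Cry1 peak on the opposite side of the day from those of Dbp, Nr1d1 and Per3, and Dbp swings with a large amplitude. Because of this, a single sample of a rhythmic gene reports its position in the day together with any difference in strength.

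The elements through which these genes are known to regulate each other were looked for in promoter windows. RefSeq promoter windows (300 bases, from 250 bases before to 50 after a gene start, GRCm38.p6) were given for 9 of the 10 genes, 12 windows in all. They were searched on both strands for the E-box CACGTG, which reads the same on both strands, the D-box TTATGNAA and the ROR element TNGGTCA (N is any base). An E-box stood in 4 of the 12 windows (Per1, Cry1 and both windows of Tef), against 7.15% of 32851 promoters. A D-box stood in 2 windows (Per1 and Per3), against 3.39%, and a ROR element in 4 windows (both of Arntl, Per3 and Tef), against 10.97%. The windows of Npas2, Nr1d1, Nr1d2 and Dbp held none of the 3 elements, and no window was given for Per2. A match describes the letters only and is no evidence of binding. The stretches of 30 bases around a match of Arntl and those of Per1, Per3 (D-boxes), Cry1 and the upstream window of Tef show the 3 kinds of element on the strand of each gene, with the motif in capitals.
Arntl ROR element, chr7:113207530-113207559, + strand: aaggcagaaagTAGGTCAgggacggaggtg
Per1 E-box, chr11:69098771-69098800, + strand: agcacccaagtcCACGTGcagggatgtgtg
Per1 D-box, chr11:69098914-69098943, + strand: agggcctggcaTTATGCAAcccgcctccca
Per3 D-box, chr4:151044852-151044881, - strand: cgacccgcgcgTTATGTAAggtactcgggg
Per3 D-box, chr4:151044805-151044834, - strand: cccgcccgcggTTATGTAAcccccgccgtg
Cry1 E-box, chr10:85185097-85185126, - strand: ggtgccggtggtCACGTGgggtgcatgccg
Tef E-box, chr15:81802534-81802563, + strand: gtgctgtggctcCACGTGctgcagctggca

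None of the clock gene probes passed the thresholds of the methods between NZO and B6. A probe was called where the unadjusted p of limma was within 0.05 and the log2 difference was at least 0.7 in either direction. By this rule 12.2% of all tested probes were called, 5.16% higher and 7.08% lower in NZO, and 0 of the 10 clock probes. With the adjusted p of limma in its place the shares were 9.62%, 4.33% and 5.28%, and again 0 of the 10. At an unadjusted p within 0.05 without the limit on the difference the count was 0 as well, against 27.8% of all tested probes. The methods' t-test with the limit called 0, against 10.5%. The log2 differences (NZO minus B6) ran from -0.76 to 0.33, with 3 above and 7 below 0. Their median was -0.22, against 0.014 over all tested probes, and the median size was 0.29 against 0.24. For each of the 13 probes the values of the strains overlapped, whereas 11.3% of all tested probes lay wholly above and 10.7% wholly below in NZO.

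The B6 mice differed more from each other in the clock genes than the NZO mice did. Over the 10 tested clock probes the median SD among 4 mice was 0.78 in B6 and 0.38 in NZO, beside the median strain difference of 0.29 in size. Over all tested probes it was 0.19 in B6 and 0.23 in NZO. The SD was larger in B6 than in NZO for 8 of the 10 clock probes, against 35.9% of all tested probes. These are descriptions of the spread of 4 mice each, with no test.

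**Figure D1:**
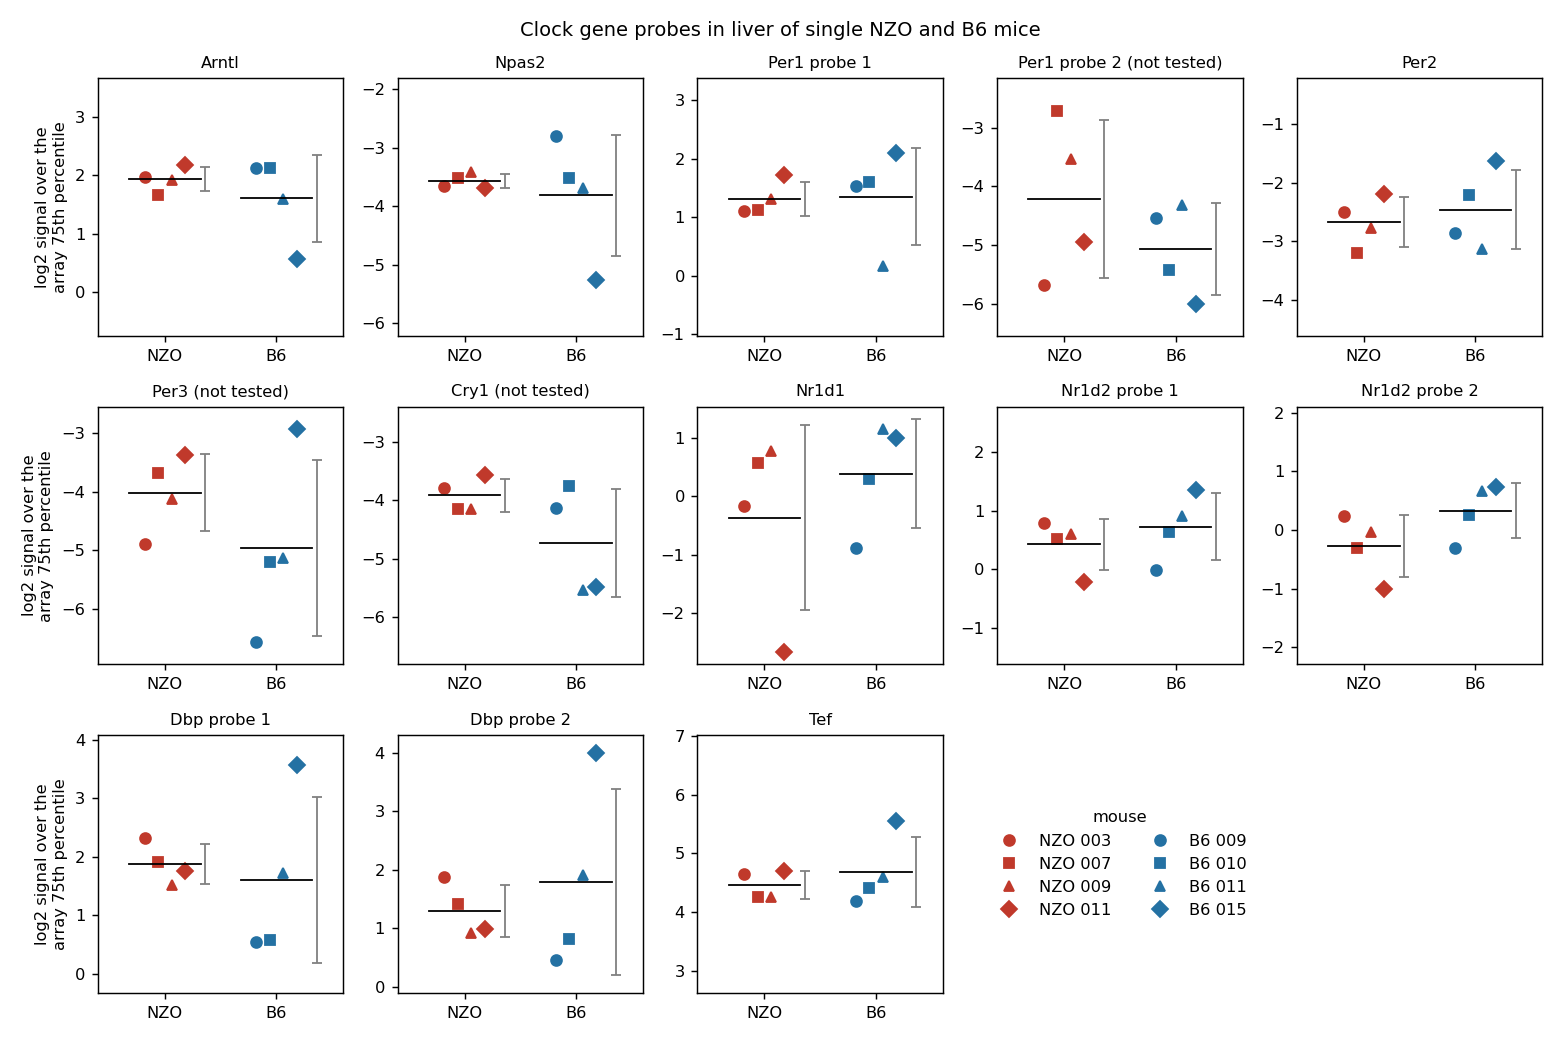
Log2 signal over the 75th percentile of the array (vertical axes) for the 13 clock gene probes, with 1 symbol per mouse (NZO red, B6 blue), the mean as a black line and the SD as a grey bar. Strain groups overlap in every panel, and B6 015 (blue diamond) is lowest of the 8 mice for Arntl and Npas2 and highest for Tef and both Dbp probes.

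Of the activators, Arntl (chr7:113178471-113314126, GRCm38) was measured at 1.97, 1.67, 1.92 and 2.18 in NZO 003, 007, 009 and 011. In B6 009, 010, 011 and 015 it was at 2.13, 2.13, 1.59 and 0.57. The NZO mice and 3 of the B6 mice lay close together, and B6 015 lay below all others. The means were 1.94 ± 0.21 in NZO and 1.61 ± 0.74 in B6 (SD, n = 4), a log2 difference of 0.33 ± 0.34 (SE, limma, adjusted p = 0.571) with a 95% interval from -0.44 to 1.101. Without B6 015 the difference was -0.016.

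Npas2 (chr1:39193702-39363240), the partner of Arntl that can stand in for Clock, was at -3.65, -3.52, -3.41 and -3.68 in the NZO mice in the same order. In the B6 mice it was at -2.79, -3.52, -3.69 and -5.26. Here B6 009 was highest and B6 015 lowest of all 8 mice, and the probe was not well above background in 1 of the 4 B6 mice. The SD was 0.12 in NZO and 1.04 in B6, and the log2 difference was 0.25 ± 0.45 (SE, limma, adjusted p = 0.765). Without B6 015 it turned to -0.23. In B6 the order of the mice was the same for both activators, from B6 015 as the lowest through B6 011 and B6 010 to B6 009, although B6 009 and B6 010 were level for Arntl.

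Of the repressors, Per1 (chr11:69095108-69109965), which responds to hormonal signals as well as to the clock, was at 1.11, 1.12, 1.31 and 1.73 in NZO by its brighter probe (A_55_P1970033). In B6 it was at 1.54, 1.601, 0.17 and 2.10. The low mouse was B6 011 and the high mouse was B6 015, with all NZO mice between them. The log2 difference was -0.035 ± 0.38 (SE, limma, adjusted p = 0.964). The other Per1 probe (A_55_P2019327) was well above background in 2 NZO mice and in no B6 mouse. It was at -5.69, -2.70, -3.53 and -4.95 in NZO and at -4.54, -5.42, -4.32 and -6.003 in B6, and the strains overlapped.

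Per2 (chr1:91415977-91459351) was at -2.50, -3.20, -2.76 and -2.20 in NZO and at -2.86, -2.20, -3.13 and -1.63 in B6. As for Per1, B6 011 was the lowest and B6 015 the highest B6 mouse, and the log2 difference was -0.21 ± 0.35 (SE, limma, adjusted p = 0.739). Without B6 015 it was 0.065. Per3 (chr4:150997018-151044707) was well above background in 3 NZO mice and 1 B6 mouse. Its values were -4.89, -3.68, -4.11 and -3.36 in NZO and -6.57, -5.20, -5.14 and -2.93 in B6. The single B6 mouse above background was B6 015, which held the highest value of all 8 mice. Cry1 (chr10:85131700-85185054), whose protein blocks the activator pair, was above background in 1 NZO and 2 B6 mice. Its values were -3.80, -4.15, -4.14 and -3.57 in NZO and -4.14, -3.75, -5.53 and -5.49 in B6, so that B6 011 and B6 015 lay below the other 6 mice.

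Nr1d1, the gene of Rev-erb alpha, gave the widest spread of the clock probes in NZO. It (chr11:98767932-98775377) was at -0.16, 0.57, 0.78 and -2.66 in NZO and at -0.88, 0.30, 1.14 and 0.99 in B6. NZO 011 was more than 1 unit below every other mouse, and the lowest and the highest NZO mouse differed 10.9-fold. The log2 difference of -0.76 ± 0.79 (SE, limma, adjusted p = 0.579) had a 95% interval from -2.56 to 1.05, and without NZO 011 it was 0.0077.

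Nr1d2 (chr14:18204056-18239106) was at 0.78, 0.52, 0.60 and -0.21 in NZO by its brighter probe (A_55_P2148534) and at -0.01, 0.64, 0.92 and 1.36 in B6. The other probe (A_52_P303891) was at 0.23, -0.31, -0.03 and -1.004 in NZO and at -0.31, 0.25, 0.66 and 0.73 in B6. By both probes NZO 011 was the lowest NZO mouse, B6 009 the lowest B6 mouse and B6 015 the highest B6 mouse. The log2 differences were -0.30 ± 0.32 (SE, limma, adjusted p = 0.584) and -0.61 ± 0.31 (adjusted p = 0.251). Without NZO 011 they were -0.090 and -0.37, and without B6 015 -0.091 and -0.48. The latter probe was called lower in NZO when NZO 003 or B6 009 was left out (-0.78 and -0.83).

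Among the PAR bZIP factors, Dbp (chr7:45705100-45710203) showed the largest swings between B6 mice among the tested clock probes. By the first probe (A_55_P2032079) it was at 2.33, 1.92, 1.52 and 1.76 in NZO and at 0.54, 0.59, 1.72 and 3.56 in B6. The NZO mice stayed within a 1.75-fold range, while the highest B6 mouse (B6 015) was 8.13-fold above the lowest (B6 009). By the second probe (A_55_P2032081) the values were 1.88, 1.41, 0.93 and 0.99 in NZO and 0.45, 0.82, 1.91 and 3.99 in B6, an 11.6-fold range in B6. The order of the mice within each strain was the same by both probes.

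The log2 difference of Dbp was 0.28 ± 0.63 by the first probe (SE, limma, adjusted p = 0.813, 95% interval from -1.16 to 1.72) and -0.49 ± 0.71 by the second (adjusted p = 0.695). Leaving out B6 015 gave 0.93 by the first probe, which was then called higher in NZO (unadjusted p = 0.0248, limma), and leaving out B6 009 gave -0.077. By the second probe the difference turned positive without B6 015 but was not called. The strain difference of Dbp thus depended on which B6 mice were counted and on the probe. The signal of the first probe minus that of the second was 0.45, 0.51, 0.59 and 0.77 in NZO and 0.09, -0.23, -0.19 and -0.43 in B6. This difference between the probes did not overlap between the strains, a comparison chosen after its values were seen.

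Tef (chr15:81802673-81826863) varied least within NZO among the output factors, at 4.65, 4.25, 4.26 and 4.70, and was at 4.19, 4.41, 4.59 and 5.55 in B6. B6 015 was again the highest of all 8 mice and B6 009 the lowest. The log2 difference was -0.22 ± 0.29 (SE, limma, adjusted p = 0.661), and it was 0.067 without B6 015.

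**Figure D2:**
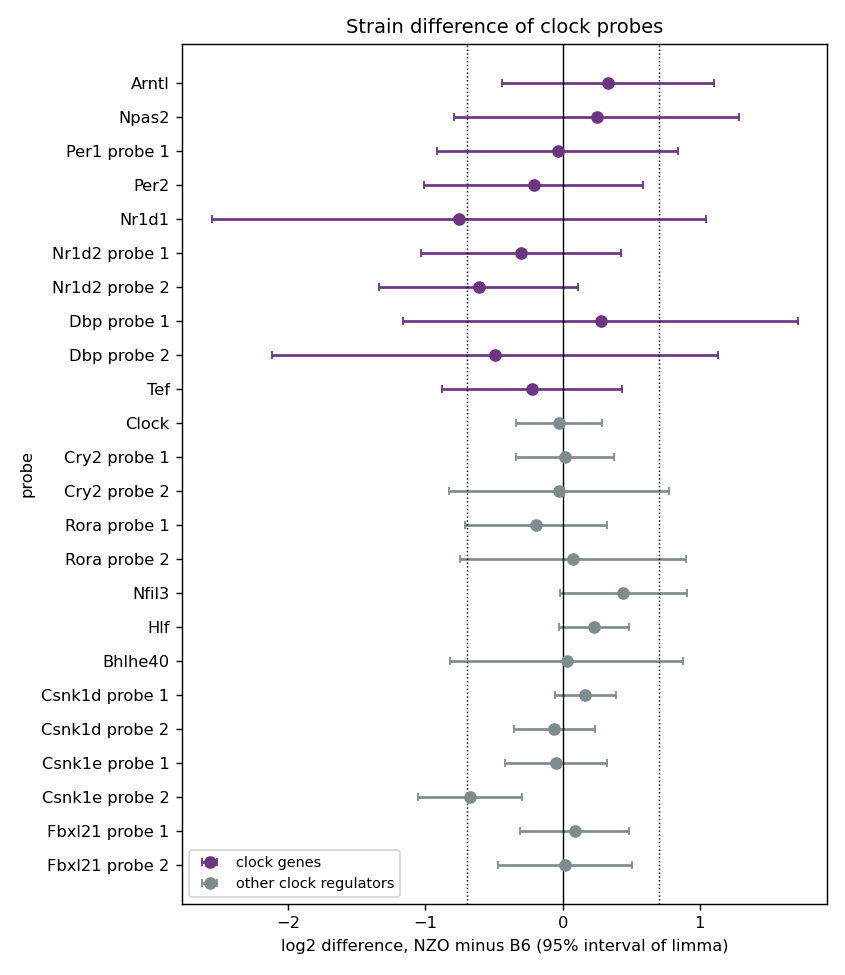
Log2 difference NZO minus B6 (horizontal axis) with the 95% interval of limma for the 10 tested clock gene probes (purple) and the 14 tested probes of the other clock regulators reported here (grey). Dotted lines mark the limit of 0.7 in either direction, and among the clock genes every interval holds 0, from Nr1d1 at -0.76 to Arntl at 0.33.

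Taken by mouse, the deviations from the strain mean ran in opposite directions for the activators and the outputs in B6. The order from B6 009 as the lowest through B6 010 and B6 011 to B6 015 as the highest held for both Dbp probes, both Nr1d2 probes and Tef. It was the exact reverse of the order of Arntl and Npas2. Per3 was well above background in B6 015 alone, so its values do not rank the other B6 mice. In Nr1d1 only the top pair changed places. The brighter Per1 probe and Per2 had another order, from B6 011 as the lowest through B6 009 and B6 010 to B6 015. Over the 10 tested probes B6 015 was the highest B6 mouse 7 times and the lowest 2 times, and B6 009 was the lowest 6 times and the highest 2 times. The 2 probes for which B6 015 was lowest were those of Arntl and Npas2. B6 010 was never at an end. In NZO the probes fell into several orders. From lowest to highest, the order NZO 007, 009, 003 and 011 held for Arntl, Per2 and Tef, the order NZO 011, 003, 007 and 009 for Npas2 and Nr1d1, the order NZO 011, 007, 009 and 003 for both Nr1d2 probes and the order NZO 009, 011, 007 and 003 for both Dbp probes. Cry1 was well above background in 1 NZO mouse only, so its values do not rank the NZO mice. Arntl and Tef, which ran in opposite orders in B6, thus shared their order in NZO. NZO 011 was the highest mouse for Arntl, Per1, Per2 and Tef and the lowest for Nr1d1, both Nr1d2 probes and Npas2.

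**Figure D3:**
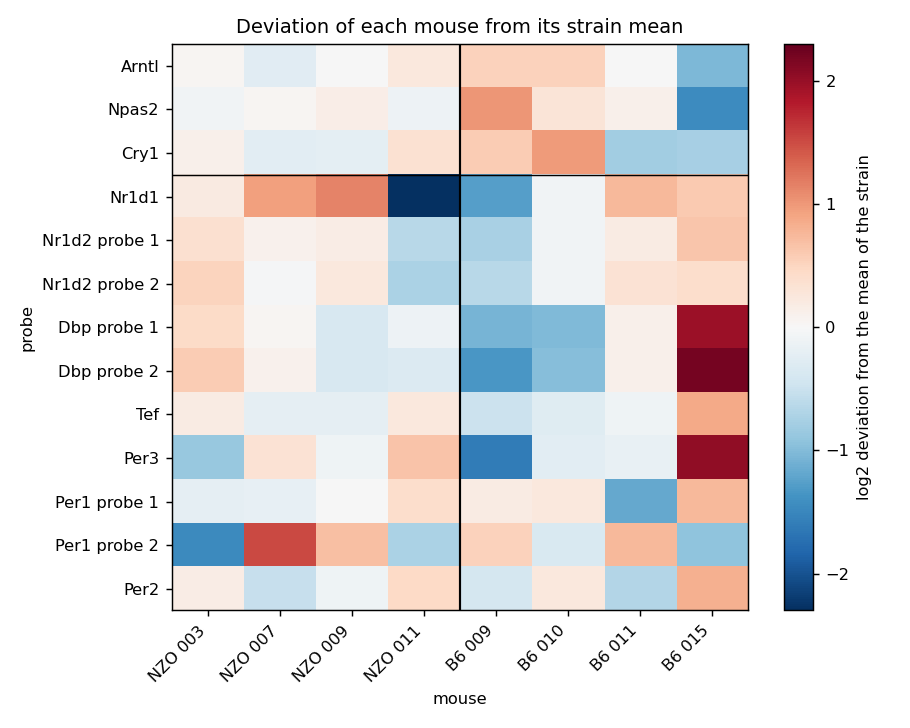
Log2 deviation of each mouse from the mean of its strain (colour scale) for the 13 clock gene probes, with the 4 NZO mice left and the 4 B6 mice right of the vertical line and Arntl, Npas2 and Cry1 above the horizontal line. B6 015 is low for the upper genes and high for most of the lower ones, B6 009 is the other way round, and NZO 011 is low for Nr1d1 and Nr1d2.

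**Figure D4:**
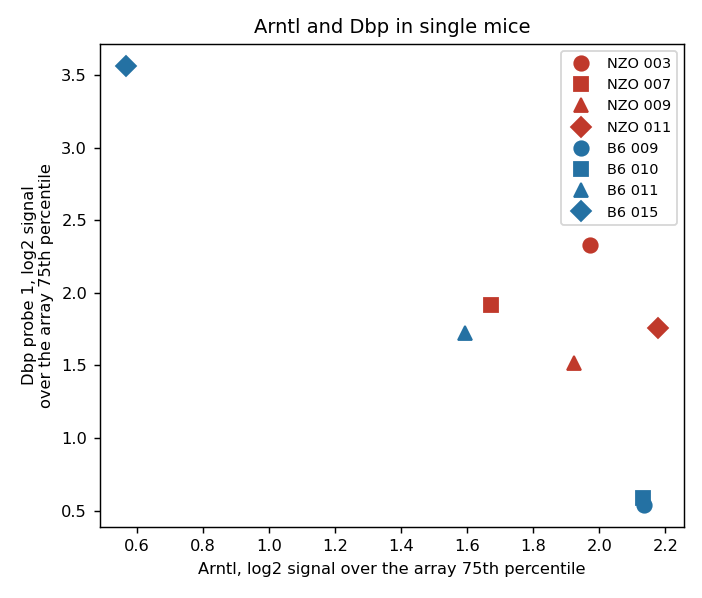
Log2 signal over the 75th percentile of the array for Arntl (horizontal axis) and the first Dbp probe (vertical axis), with 1 symbol for each of the 4 NZO mice (red) and the 4 B6 mice (blue). B6 mice run from 2.13 and 0.54 (B6 009) to 0.57 and 3.56 (B6 015), and the NZO mice lie between 1.67 and 2.18 on the Arntl axis.

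A difference per mouse was formed from the mean of the brightest probes of Arntl, Npas2 and Cry1 minus that of Per1, Per2, Per3, Nr1d1, Nr1d2, Dbp and Tef. It was -2.01, -2.21, -2.11 and -1.65 in NZO 003, 007, 009 and 011 and -1.02, -1.73, -2.58 and -4.68 in B6 009, 010, 011 and 015. Its size between probes has no meaning by itself, but between mice it covered 0.56 in NZO and 3.66 in B6. The B6 range was 1.56 without B6 015, and the NZO range was 0.20 without NZO 011. With normexp the ranges were 0.31 in NZO and 1.66 in B6, and with the deposited intensities they were 0.36 and 1.99. All NZO mice lay inside the range of the B6 mice, between B6 010 and B6 011 apart from NZO 011, which lay just above B6 010. Without the dim genes Cry1 and Per3 the values were -1.87, -1.79, -1.70 and -1.27 in NZO and -0.75, -1.58, -1.95 and -4.33 in B6, and the order of the B6 mice was unchanged. Npas2 was kept in these values, although its probe was not well above background in a B6 mouse. The order of the B6 mice was also the same with normexp background correction, quantile normalization and the deposited table. No test was made on this difference, because its genes were chosen for the clock.

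**Figure D5:**
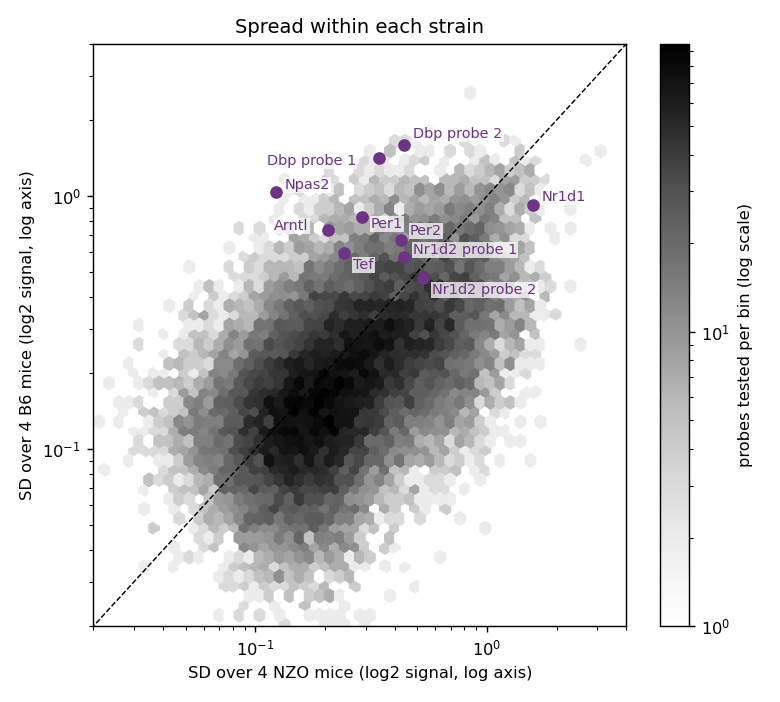
SD over the 4 NZO mice (horizontal log axis) against SD over the 4 B6 mice (vertical log axis) in log2 units for 27639 tested probes (grey, probes per bin on a log scale) and the 10 tested clock gene probes (purple). The dashed line marks equal SD, with Dbp, Npas2, Per1, Arntl, Tef and Per2 and the brighter Nr1d2 probe above it and Nr1d1 and the other Nr1d2 probe below.

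Set against all tested probes, the clock genes stood at the upper end of the spread in B6 and took a wider range of places in NZO. The SD in B6 was larger than that of 99.6% and 99.8% of all tested probes for the Dbp probes, 98.4% for Npas2, 97.6% for Nr1d1, 96.8% for Per1 and 95.5% for Arntl. For Npas2 it includes a B6 mouse in which the probe was not well above background. The lowest such share in B6 was 88.0%, for the dimmer Nr1d2 probe. In NZO the share was 17.6% for Npas2, 43.6% for Arntl, 52.1% for Tef and 67.9% and 77.1% for Dbp, and it reached 99.5% for Nr1d1 alone. Because dim probes vary more, the same was read among 13222 tested probes with a mean above 0. There the share in B6 was 98.8% for Arntl, 99.2% for Per1, 99.4% for Nr1d1, 97.6% and 96.4% for Nr1d2, 99.9% for both Dbp probes and 97.8% for Tef. In NZO it was 65.3% for Arntl, 83.1% for Per1, 99.95% for Nr1d1, 92.8% and 95.2% for Nr1d2, 88.3% and 92.9% for Dbp and 74.97% for Tef, so that most of the bright clock probes lay in the upper part there too.

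B6 015 carried much of this spread but not all of it. Without it the median SD of the clock probes in B6 fell from 0.78 to 0.48, and the SD was still larger in B6 for 7 of 10 probes, against 32.6% of all tested probes. Without NZO 011 the median in NZO fell from 0.38 to 0.25 and the SD was larger in B6 for 10 of 10. Over all probes B6 015 did not stand apart: 902 of 27639 probes (3.26%) lay at least 1 unit from the mean of the other B6 mice, against 915 for B6 009, 882 for B6 010 and 747 for B6 011. In NZO the same count ran from 1045 in NZO 011 to 2483 in NZO 007.

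B6 015 was hybridised on the same slide and scanned on the same day as B6 010 and NZO 003, whereas B6 009 and B6 011 were on slides of their own and scanned on another day with NZO 007. Within the shared slide, NZO 003 minus the mean of the pair of B6 mice was 0.62 for Arntl, 0.25 and -0.53 for Dbp and -0.81 for Nr1d1. Within the first scan day (3 NZO and 2 B6 mice) Arntl differed by 0.67 and Dbp by -0.21 and -1.14. Within the other (1 NZO and 2 B6 mice) Arntl differed by -0.19 and Dbp by 0.79 and 0.22. The direction of these genes thus changed between the scan days, with 1 to 3 mice of a strain in each. With slide as a random term or scan day as a fixed term, 0 of the 10 clock probes were called. Only the shared slide held both strains, so slide as a fixed term rests on NZO 003 against B6 010 and B6 015 alone.

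Further regulators of the clock were read in the same way. Of the 11 genes reported here, 14 probes of 9 genes were tested, and 0 were called, against 12.2% of all tested probes. At an unadjusted p of limma within 0.05 without the limit on the difference the count was 1, the dimmer Csnk1e probe, against 27.8%. The median log2 difference was 0.016.

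By their brightest probes, Clock differed by -0.024 ± 0.14 (SE), Cry2 by 0.015 ± 0.16 and Bhlhe40, a repressor at E-boxes, by 0.031 ± 0.37. Hlf, the third PAR bZIP factor, differed by 0.23 ± 0.11 (limma, adjusted p = 0.221) and Nfil3, which competes with these factors at D-boxes, by 0.44 ± 0.20 (adjusted p = 0.199). Nfil3 was at 4.15, 3.97, 4.20 and 4.39 in NZO and at 3.99, 3.88, 3.94 and 3.14 in B6, so that B6 015 was low for this gene too. Rora differed by -0.19 ± 0.22, and the casein kinases Csnk1d and Csnk1e, which mark the PER proteins for decay, by 0.17 ± 0.10 and -0.050 ± 0.16. The dimmer Csnk1e probe lay lower in all NZO mice (-0.68 ± 0.17, adjusted p = 0.0289) but under the limit of 0.7. Fbxl21, an F-box gene that governs the stability of the CRY proteins, differed by 0.090 ± 0.17.

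Ciart, a repressor of the activator pair with a strong rhythm, was well above background on a single array of 8, that of B6 015, where it was at -2.25. The other 7 mice lay between -6.74 and -5.97, and the probe was not tested. Bhlhe41 was above background in 3 B6 mice and in no NZO mouse by its brighter probe. It was at -5.88, -3.86, -5.001 and -4.60 in NZO and at -3.52, -5.91, -3.80 and -2.73 in B6, and the strains overlapped.

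Among 12 tested probes of 9 liver output genes of the clock, 1 was called higher and 2 lower in NZO, against 5.16% and 7.08% of all tested probes, and both lower calls were probes of Nr1i3. Cyp7a1, the rate-limiting enzyme of bile acid synthesis and a target of the PAR bZIP factors, was at 2.07, 1.77, 2.03 and 3.14 in NZO and at 0.75, -0.33, 1.02 and 1.504 in B6. All NZO mice lay above all B6 mice, by 1.51 ± 0.43 (log2, SE, limma, adjusted p = 0.0510), which passed the unadjusted threshold only. Slide as a fixed term, which rests on NZO 003 against B6 010 and B6 015, gave a difference of 1.48. Nr1i3, the nuclear receptor CAR of drug metabolism, was at 2.39, 2.56, 2.997 and 2.53 in NZO and at 3.84, 3.66, 3.59 and 3.41 in B6 by its brighter probe. It was lower in NZO by both probes, at -1.01 ± 0.16 (adjusted p = 0.00337) and -1.04 ± 0.18 (adjusted p = 0.00567). The remaining 9 probes, those of Wee1, Usp2, Nampt, Alas1, Elovl3, Gys2 and Por, were not called, and the list median was 0.083. The signal of Usp2, named after its values were seen, was -1.96, -2.32, -1.62 and -0.02 in B6, with B6 015 highest.

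Hormone and feeding signals also act on clock genes, and a few of their target genes differed by strain. Of 4 glucocorticoid targets, 1 was called higher in NZO, against 5.16% of all tested probes. This was Fkbp5, at 2.92, 3.14, 2.56 and 2.53 against 1.91, 1.82, 1.98 and 1.86 in B6. The groups did not overlap, and the log2 difference was 0.90 ± 0.15 (SE, limma, adjusted p = 0.00512). It fell under the limit of 0.7 with the deposited table (0.61). Tsc22d3, Sgk1 and Klf9 differed by -0.20 ± 0.37, 0.059 ± 0.41 and -0.37 ± 0.14 and were not called, the last with an unadjusted p of 0.0272 (limma) but under the limit of 0.7.

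Of 5 genes of feeding and fasting reported here, 2 were called higher and 2 lower in NZO, against 5.16% and 7.08% of all tested probes. After adjustment the counts were 1 and 2, against 4.33% and 5.28%. Igfbp1, a binding protein of insulin-like growth factors that insulin represses, was at 3.10, 3.78, 4.19 and 4.27 in NZO and at 6.21, 7.37, 6.08 and 7.13 in B6. It was lower in every NZO mouse, by -2.86 ± 0.37 (log2, SE, limma, adjusted p = 0.00127). Srebf1, the lipogenic factor that insulin induces, was lower as well, by -0.79 ± 0.17 (adjusted p = 0.0159). Fgf21, a hormone of fasting and dietary stress, was higher by 2.45 ± 0.65 (adjusted p = 0.0403), although its strains overlapped, and Pdk4 by 0.80 ± 0.32 (adjusted p = 0.151). Of these, Igfbp1 was called under every alternative run. Pdk4 lost its call under 11 of 18 alternatives, among them slide as a random block (0.74, limma, unadjusted p = 0.0515), scan day as a fixed term (0.68, unadjusted p = 0.0610), the deposited table (0.46) and the omission of NZO 009 (0.66), NZO 011 (0.63), B6 009 (0.85), B6 011 (0.704) or B6 015 (0.65). Slide as a fixed term rests on NZO 003 against B6 010 and B6 015. It gave 2.999 for Fgf21, -0.52 for Srebf1 and 0.52 for Pdk4. Srebf1 also fell under the limit without NZO 007 (-0.69) or B6 009 (-0.67). Pck1, the gluconeogenic enzyme, differed by -0.47 ± 0.29 and was not called. Of the called genes, Fgf21 and Pdk4 were thus higher and Igfbp1 and Srebf1 lower in NZO. The part of the feeding state in the clock values was not tested.

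The labelled tissue was checked against markers. The 5 hepatocyte markers, Alb the most abundant, were above background in all mice, and 0 were called. Adipoq, Plin1 and Lep of the adipocyte list and Cela3b, Pnlip, Cpa1 and Prss2 of the exocrine pancreas list were not well above background in any mouse. Cidec, Fabp4 and Car3 of the adipocyte list and Cela1 and Ctrb1 of the pancreas list were well above background in all mice, and none of their probes was called. Of these, Car3 lay higher in every NZO mouse than in any B6 mouse, by 0.47 ± 0.097 (log2, SE, limma, adjusted p = 0.0133), under the limit of 0.7. The adipocyte list, Car3 the most abundant, summed to 565 to 644 in NZO and 409 to 481 in B6 as multiples of the 75th percentile of the array, and the pancreas list, Ctrb1 the most abundant, to 1.36 to 2.296 and 1.29 to 1.75. Of 4 red blood cell markers 3 were called higher in NZO, Hba-a1, Hbb-b1 and Alas2, against 5.16% of all tested probes. After adjustment the count was 2, against 4.33%. Of the bile duct list 3 markers were tested, and Sox9 was called lower in NZO with and without adjustment, against 5.28% and 7.08% of all tested probes. Hbb-b1 of the red cell list fell under the limit without NZO 009 (0.59) or B6 015 (0.69). Krt7 of the bile duct list and Itgax of the leukocyte list also passed the unadjusted thresholds, and no other leukocyte probe did. Both were well above background in all 4 B6 mice but in 2 of the 4 NZO mice. They thus entered the test through B6 alone, so their passing is not read as a strain difference and no size is given. The leukocyte list, Cd3e the most abundant, summed to 10.8 to 18.8 in NZO and 10.8 to 13.4 in B6 on the same scale. The brighter Cd68 probe lay lower in every NZO mouse than in any B6 mouse, by -0.42 ± 0.11 (log2, SE, limma, adjusted p = 0.0445). Ptprc differed by -0.52 ± 0.17 (adjusted p = 0.0831) and Lyz2 in the other direction, by 0.41 ± 0.15 (adjusted p = 0.1095), all under the limit of 0.7. The summed level of the red cell list, Hba-a1 the most abundant, was 293 to 470 in NZO and 155 to 208 in B6 on that scale. That of the bile duct list, Krt19 the most abundant, was 0.47 to 0.77 in NZO and 1.14 to 1.53 in B6. Their part in the strain differences of Cyp7a1, Nr1i3, Fkbp5 and the feeding genes was not tested, and in bulk liver fewer cells of a type and less RNA per cell cannot be told apart. The skeletal muscle list, Myh4 the most abundant, summed to 16.4 in NZO 007, against 0.19 to 0.39 in the other NZO mice. Within B6 the sums were 0.35, 5.49, 0.99 and 1.39 in B6 009, 010, 011 and 015, and the part of muscle RNA in the clock values was not tested.

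The genes whose signal followed that of Arntl or Dbp most closely across the mice were read from 24451 probes above background on all 8 arrays. Clock genes and probes carrying only an accession, a clone or a locus identifier were passed over, and each gene was counted once. Correlations were taken over the 8 arrays after subtraction of the strain mean and are descriptions only. For Arntl they were Zfp652 (r = 0.99), Lonrf3 (0.98), Cyb5b (0.98), Zfp945 (0.97) and Zfp64 (0.97). For the first Dbp probe they were Spic (0.99), Pla2g7 (0.99), Pglyrp2 (0.98), Orm1 (0.98) and Akr1b10 (0.98). Orm1 encodes an acute-phase protein of liver and Cyb5b an outer mitochondrial membrane cytochrome. All of them rest in part on B6 015, the mouse farthest from its strain mean for both genes. Without it r was 0.84 to 0.94 for the genes named with Arntl and 0.89 to 0.98 for those named with Dbp.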

How the data were processed

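For every array the authors deposited scanner intensities, and for the series a single summary of intensities. Intensities came from Feature Extraction by Agilent, version 11.0.1.1 per the file headers and 9.1 per the submitters' processing notes. The summary is called normalized, but it equalled the raw median signal for 59305 of 59305 spots in each mouse. The background-subtracted processed signal was used here. Control spots and the 96 to 137 outlier spots of an array were dropped, log2 values were taken, the 75th percentile of each array (119 to 142 in NZO, 136 to 159 in B6) was subtracted and spots of a probe were averaged. Probes clearly above background in all 4 mice of either strain were tested with limma 3.58.1 in R 4.3.3 (data.table, version 1.17.8), NZO against B6 without a block, with Benjamini-Hochberg adjustment over 27639 probes. The sample numbers were read as mice, which the labels do not state in words, so p-values measure the spread between these samples, part of which may be technical. The number of arrays limits the precision.

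The 10 clock genes, the other lists and the tests were chosen with earlier results of these data known. All probes of the clock genes are named. Of the other lists the probes past the thresholds are named, and of the clock regulators the brightest probe of each gene too. The 5 named genes outside the clock genes most alike in pattern to Arntl and to Dbp are given as well. Bounds used the lowest signal found above background on each array. Gene positions and promoters are those of RefSeq on GRCm38.p6; accessions of 11 of 13 clock probes and the symbols of all 13 matched. From the lists, 3 genes are not reported here and were left out of the counts of their lists. No probe of the array carried the name Cyp2a5, 1 of the 10 output genes listed. The test was tried on simulated data with planted changes. Alternatives were normexp background correction (offset 50), quantile normalization, the deposited summary, no or a stricter filter on dim probes, slide, scan day or mouse number as a block, the methods' t-test, adjusted p-values and leaving out each mouse. Tables and plots were made in Python 3.11.15 (pandas 2.3.3, matplotlib 3.10.9).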

Additional observations from a re-analysis of the deposited data

Results flagged for a closer look

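Of 102 groups of 4 mice examined, over all probes of the clock genes, regulators, outputs, glucocorticoid and feeding lists, 8 held a mouse whose distance from its nearest neighbour took most of the range of the group (above Dixon's 95% critical value). Chance gives about 1 in 20 groups. B6 015 was the mouse in 3 of the 8. Ciart lay at -2.25 in this mouse, far above the other B6 mice. Nfil3 lay at 3.14, below the others. The dimmer Bhlhe41 probe lay at -5.48, above the others, and its level was not well above background. The dimmer Rora probe was high in B6 010, at -2.83, and the dimmer Fbxl21 probe was low in B6 009, at -3.96. Klf9 was low in NZO 011, at 3.42, and in B6 010, at 3.85. Por was low in NZO 009, at 3.02. The 13 clock gene probes were examined too, and none was among the 8.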

How the results depend on the processing

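A clock gene probe was called under no alternative apart from the deposited intensities and 3 of the 8 settings that leave out a mouse. Slide as a fixed term, which rests on NZO 003 against B6 010 and B6 015, is included in the counts of this section. The deposited intensities called 1, the dimmer Nr1d2 probe (-0.72), and moved the median of all probes from 0.014 to -0.15. Without NZO 003, B6 009 or B6 015 the count was 1, so it ran from 0 to 1. Over all probes, 1426 called higher and 1956 lower became 649 and 614 with normexp, 602 and 1515 with the deposited intensities, and 1103 and 1189 with probes above background on all arrays, where fewer were tested. Leaving out a mouse gave 1379 to 1519 higher and 1845 to 2238 lower. When a mouse was left out, the median SD of the clock probes ran from 0.25 (without NZO 011) to 0.40 in NZO and from 0.48 (without B6 015) to 0.89 in B6. Under the other alternatives it ran from 0.27 to 0.42 in NZO and from 0.604 to 0.83 in B6. When a mouse was left out, the range over mice of the difference between Arntl, Npas2 and Cry1 and the other clock genes ran from 0.20 (without NZO 011) to 0.56 in NZO and from 1.56 (without B6 015) to 3.66 in B6. It was 0.31 and 1.66 with normexp, 0.36 and 1.99 with the deposited intensities, 0.61 and 3.59 with quantile normalization, 0.602 and 3.58 with the tested genes alone and 0.597 and 3.73 with the other Dbp probe. Differences of clock genes that were not called also changed sign, Npas2 (-0.082) with the deposited intensities and Per2 (0.0099) with normexp. When a mouse was left out the difference ran from -0.016 to 0.51 for Arntl, -0.23 to 0.59 for Npas2, -0.43 to 0.21 for Per1, -0.43 to 0.065 for Per2, -1.18 to 0.0077 for Nr1d1, -0.55 (without B6 009) to -0.090 (without NZO 011, and -0.091 without B6 015) and -0.83 to -0.37 (without NZO 011) for the Nr1d2 probes, -0.077 to 0.93 and -0.94 to 0.24 for the Dbp probes and -0.39 to 0.067 for Tef. In Arntl, Npas2, Per2, the second Dbp probe and Tef leaving out B6 015 was the setting that turned the sign, in Nr1d1 leaving out NZO 011, in the first Dbp probe leaving out B6 009 or B6 010, and in Per1 leaving out any of 5 mice. The causes were not tested.

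Mouse numbers 009 and 011 occur in both strains. The deviations of mice of the same number correlated at -0.29 and -0.026 over 24451 probes. Neither value was positive, but without those of differently numbered mice they cannot show whether the numbers pair the mice. With the number as a replicate block, which rests on these 2 pairs, 0 clock probes were called, the calls over all probes were 1747 higher and 2423 lower, and Npas2 (-0.30), Per1 (0.67), Per2 (0.51) and Tef (0.086) changed sign. In the same fit Fgf21 (1.67), Srebf1 (-0.80), Fkbp5 (0.601), Hba-a1 (0.88) and Hbb-b1 (0.68) were no longer called. Of the 14 probes of the fixed lists outside the clock genes that passed the thresholds none changed sign. Itgax and Krt7, which entered the test through B6 alone, are counted among them. Under the alternatives 35 of 250 values no longer passed the thresholds, 11 of them of Pdk4 and 5 each of Hbb-b1 and Krt7. The spread, the difference per mouse and the likeness were recomputed under alternatives chosen after seeing the data.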
